A study of Mus musculus with 12 samples.

Results

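The 10 genes described here encode receptors of the interleukin-6 (IL-6) cytokine family, a pair of its ligands, the transcription factor STAT3 and the feedback inhibitor of the pathway. They were chosen by symbol (Il6st, Il6ra, Lifr, Osmr, Cntfr, Il31ra, Lif, Il6, Socs3 and Stat3), and all 10 were found among the 22609 genes counted in every library. The study asked which genes differ between female and male sensory neurons, and sequenced RNA from neuronal fractions of dorsal root ganglia (DRG), which serve the body, and trigeminal ganglia (TG), which serve the face. Each sex and ganglion was represented by 3 libraries (12 in all, in 4 groups), and every animal was a naive wild-type C57BL mouse without a transgene. The labels give an age of 3 to 4 months, the study's methods a younger range in weeks, C57BL/6J as the strain, and females taken in estrus. Ganglia were dissociated enzymatically and neurons were collected from a Percoll density gradient, so every level below is that of a fraction in bulk. Whether a library held 1 animal or a pool, and whether numbered replicates were separate preparations, is not given in the labels, so p-values measure the spread between these libraries.

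Cytokines of this family signal through receptor complexes that share gp130, the product of Il6st. With gp130, a cytokine binds a specific chain (IL6RA for IL-6, CNTFR for ciliary neurotrophic factor, LIFR for leukaemia inhibitory factor, OSMR for oncostatin M). JAK kinases are then activated, and STAT3 is phosphorylated and moves to the nucleus, where it induces Socs3 among other genes. OSMR also pairs with IL31RA, without gp130, to form the receptor for IL-31 on a class of itch-sensing neurons that makes Nppb and Sst, and in sensory neurons the gp130 cytokines are known for their part in the response to nerve injury.

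Reads in genes ran from 7511765 to 15396090 per library, so that 3 counts, taken as the lowest readable level, corresponded to 0.207 to 0.357 CPM (the reads of a gene scaled to a common library size, with TMM factors). Reads outside genes made up 37.6% to 50.4% of the reads in and outside genes, and this share differed between the sexes, with 46.4% to 50.4% in female DRG against 38.2% to 42.6% in male DRG, and 43.5% to 49.1% in female TG against 40.8%, 37.6% and 47.9% in male TG. Neuronal RNA was read on 10 neuronal markers, among them Tubb3, Snap25, Avil and Scn10a. All were counted in every library, with a summed level of 6401 to 11624 CPM. No unpurified ganglion was among these libraries, so the enrichment of neurons could not be checked. Markers of glia and other cells were present too, with 2383 to 6295 CPM for 5 satellite glia markers and 618 to 2191 CPM for 6 fibroblast markers. In such a bulk fraction, fewer cells of a type and less RNA per cell cannot be told apart. Female libraries held 9351 to 15691 counts of Xist and male libraries 4 to 11, so the libraries matched their labels of sex.

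Per kilobase of exon, the genes fell into an abundant receptor pair, a middle range and a low range. Il6st had 175 ± 31.9 RPKM (CPM per kilobase of exon; SD, n = 12) and Lifr 153 ± 21.3 RPKM, and the pair lay within each other's spread. Stat3 followed with 26.9 ± 6.62 RPKM, above Socs3 with 11.0 ± 5.59, Osmr with 10.8 ± 7.49 and Cntfr with 9.20 ± 5.28 RPKM, which differed from each other by less than their spread. Il6 (2.17 ± 2.27), Il31ra (2.09 ± 1.38), Il6ra (1.36 ± 0.952) and Lif (0.370 ± 0.333 RPKM) made up the low range, again with neighbours inside each other's spread. Within the 12 libraries the RPKM of Lifr was 0.789 to 1.03 times that of Il6st, and exceeded it only in male TG 1 (1.03) and male TG 3 (1.01). Osmr stood at 0.0334 to 0.120 times Il6st.

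**Figure D1:**
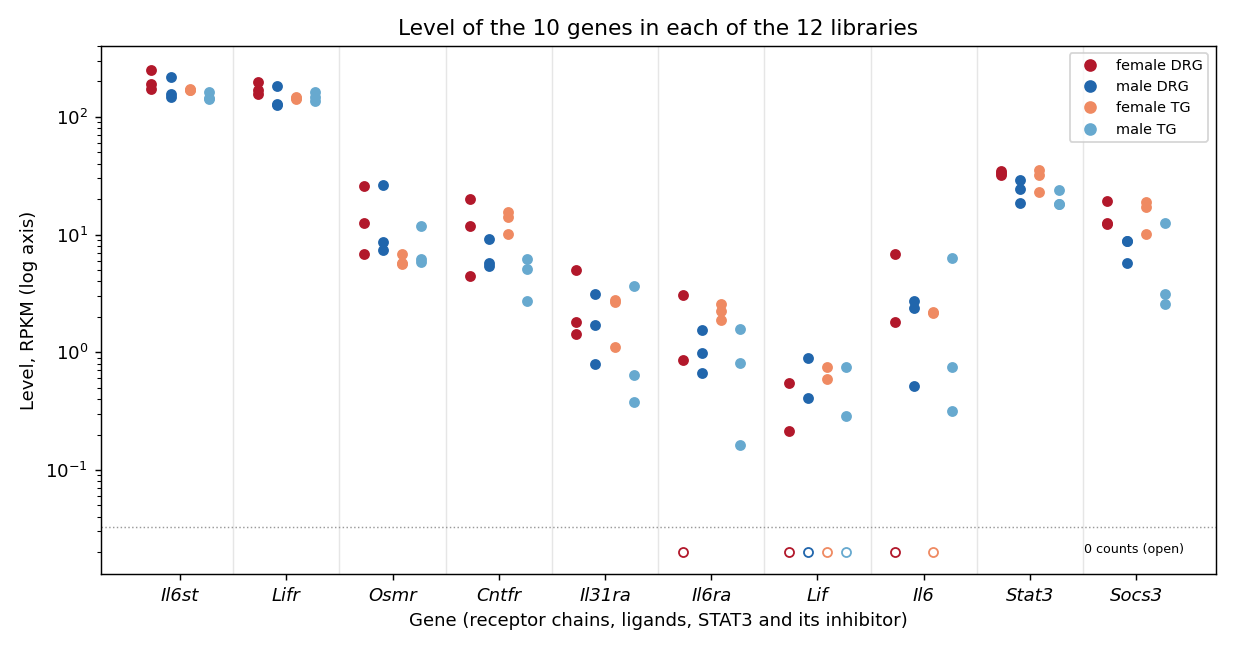
Level of each gene in RPKM (log axis) in the 12 libraries, coloured by group, with libraries at 0 counts drawn open at the bottom. Il6st and Lifr lie between 126 and 250.5 RPKM, and Lif is at 0 in 4 libraries.

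Il6st (ENSMUSG00000021756.5, mm9 chromosome 13, 113265216 to 113297068, plus strand), which encodes gp130, was counted at 901.5, 995 and 1304 CPM in the 3 female DRG libraries and at 813, 769 and 1139.8 CPM in the male DRG libraries. In TG it was counted at 881, 904 and 881 CPM in females and 739.5, 756 and 844 CPM in males. The sexes overlapped in DRG, and in TG every female library lay above every male library. Fold changes here are those fitted by edgeR, as log2 of females over males, and adjusted p-values are corrected over all genes that passed a filter on low counts. The difference was 0.24 in TG (SE 0.19, 95% confidence interval -0.19 to 0.66, edgeR adjusted p = 0.502) and 0.23 in DRG (SE 0.27, interval -0.36 to 0.82, adjusted p = 0.794), so that neither passed the test.

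Lifr (ENSMUSG00000054263.5, chromosome 15, 7079559 to 7147489, plus strand), the chain that joins gp130 for leukaemia inhibitory factor and ciliary neurotrophic factor, had 1598, 1728 and 2041.5 CPM in female DRG and 1301, 1332 and 1879 CPM in male DRG. Its TG levels were 1474, 1481.5 and 1532 CPM in females and 1518, 1409 and 1689 CPM in males. The sexes overlapped in both ganglia. In TG the log2 fold change of 0.01 had an interval of -0.41 to 0.42 (edgeR adjusted p = 0.99), and in DRG it was 0.25 (interval -0.31 to 0.80, adjusted p = 0.759).

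Osmr (ENSMUSG00000022146.5, chromosome 15, 6763577 to 6824313, minus strand), the oncostatin M and IL-31 receptor chain, lies next to Lifr, 255 kb away with 0 annotated genes between them. It was counted at 33.0, 60.9 and 125 CPM in female DRG, at 35.5, 42.0 and 127 CPM in male DRG, at 27.4, 32.8 and 27.7 CPM in female TG and at 30.2, 28.1 and 56.5 CPM in male TG. The library numbered 3 was far above the others in both DRG groups and in male TG, and the sexes overlapped in both ganglia. No sex difference passed, with log2 fold changes of 0.08 in DRG (SE 0.53, edgeR adjusted p = 0.976) and -0.34 in TG (SE 0.31, adjusted p = 0.557). Without female DRG 3 the DRG value was -0.56, and without male TG 3 the TG value was 0.06, so single libraries set its sign.

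Between the ganglia Osmr showed the largest fitted difference among the receptor chains, with 70.6 ± 44.1 CPM in DRG and 33.8 ± 11.3 CPM in TG (SD, n = 6 each). The TG over DRG log2 fold change was -1.08 (SE 0.34, interval -1.79 to -0.37), a fold of 2.11, with an edgeR unadjusted p of 0.00521 that became 0.203 after adjustment, and the ganglia overlapped. Without a filter on low counts, which left the fold change at -1.07, the adjusted p was 0.0449, and in DESeq2 it was 0.0553. The difference was -0.67 without male DRG 3 and -0.52 in the libraries numbered 1 and 2 (adjusted p = 0.212). Of all 14829 genes tested, 0.627% were higher in TG and 0.337% higher in DRG at an edgeR adjusted p under 0.05, and none of the 10 genes was among them. Osmr was the 1 of the 10 with an edgeR unadjusted p under 0.05, a level that 1310 of all 14829 genes reached. DESeq2 also called 0 of the 10.

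Il31ra (ENSMUSG00000050377.6, chromosome 13, 113313018 to 113370870, minus strand), the specific chain of the IL-31 receptor, lies 15.9 kb from Il6st with 0 annotated genes between. It was counted at 6.66, 5.25 and 18.4 CPM in female DRG, 2.90, 6.29 and 11.3 CPM in male DRG, 4.05, 9.72 and 10.2 CPM in female TG and 2.37, 1.38 and 13.4 CPM in male TG. The library numbered 3 held the highest level of its group in all 4 groups. Neither sex difference passed (log2 fold change 0.53 in TG, SE 0.77, edgeR adjusted p = 0.726, and 0.54 in DRG, SE 0.69, adjusted p = 0.813), but the TG value was 2.14 without male TG 3 and then met the criteria given below (unadjusted p = 0.0136, adjusted p = 0.121). The TG over DRG value of -0.31 had an interval of -1.46 to 0.85 and did not pass (edgeR adjusted p = 0.983).

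Il6st, Lifr and Osmr were all highest in the library numbered 3 in female DRG, male DRG and male TG, but not in female TG, where Lifr was highest in library 3 and Il6st and Osmr in library 2. Over the 12 libraries, with group means removed, Pearson's r of log2 CPM was 0.961 for Il6st and Osmr, 0.956 for Lifr and Osmr and 0.947 for Il6st and Lifr, against 0.751 for Osmr and Il31ra. These are descriptions over libraries that share depth and preparation. Against the mean of the libraries numbered 1 and 2, the library numbered 3 had an Osmr level higher by 1.48 on the log2 scale in female DRG, 1.71 in male DRG and 0.95 in male TG, while the contrast was -0.12 in female TG. For Il6st the same contrast was 0.46, 0.53, 0.17 and -0.02. Satellite glia markers moved the other way: their summed level in female DRG was 5180 and 4812 CPM in libraries 1 and 2 and 2383 CPM in library 3, in male DRG 5367, 5221 and 2749 CPM, and in male TG 4261, 5033 and 3643 CPM. Female TG 3, where Osmr was not raised, also had the lowest sum of its group, 3770.3 CPM against 5334 and 6295. Over the 12 libraries r with this sum was -0.822 for Lifr, -0.799 for Osmr and -0.702 for Il6st, and all 5 satellite markers were counted in every library. The part of glial RNA in these levels was not tested.

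**Figure D2:**
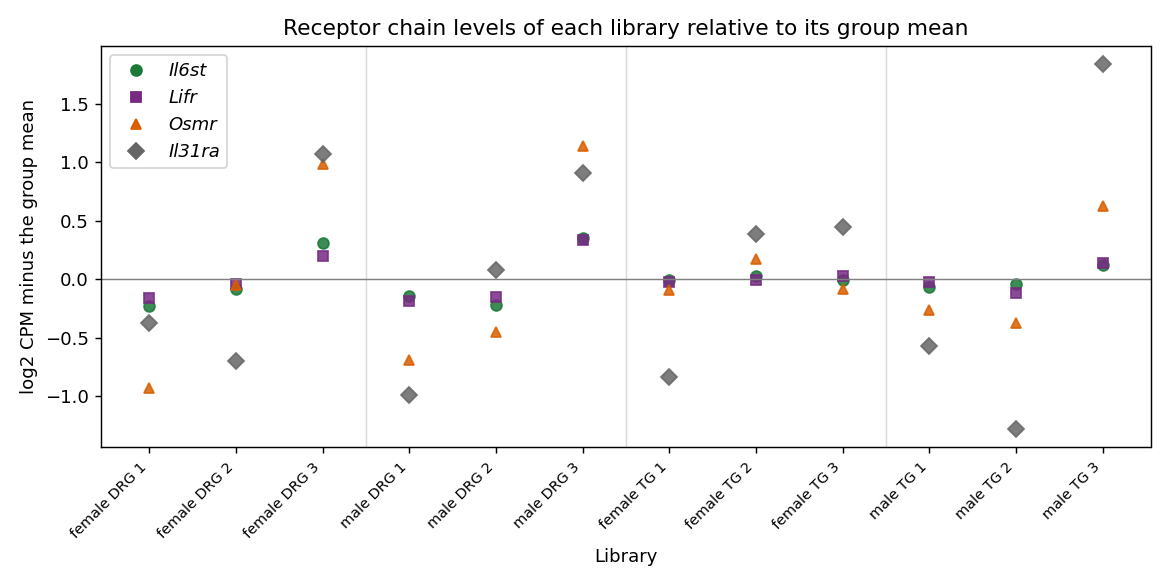
Log2 CPM of Il6st, Lifr, Osmr and Il31ra in each library minus the mean of its group (y axis) for the 12 libraries (x axis). Points of Osmr and Il31ra sit above the mean in female DRG 3, male DRG 3 and male TG 3, where Il6st and Lifr also lie above it by smaller amounts.

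Cntfr was the receptor chain with the clearest sex difference. Cntfr (ENSMUSG00000028444.11, chromosome 4, 41604529 to 41644121, minus strand) encodes the membrane-anchored chain that binds ciliary neurotrophic factor before LIFR and gp130 join. It was counted at 43.5, 39.2 and 28.0 CPM in female TG and at 7.65, 17.1 and 14 CPM in male TG, so that the lowest female library lay above the highest male library. The means were 36.9 ± 8.03 and 12.9 ± 4.83 CPM (SD, n = 3 each), and the fitted fold was 2.95. On the log2 scale this was 1.56 (SE 0.35, interval 0.79 to 2.33), with an edgeR unadjusted p = 0.000914 that became 0.154 after adjustment. DESeq2 gave an adjusted p of 0.00879. In DRG it was counted at 55.6, 33.0 and 12.4 CPM in females and 16.0, 25.7 and 15.0 CPM in males. These overlapped, since female DRG 3 was the lowest of the 6 DRG libraries, and the fitted value of 0.85 (SE 0.49, edgeR adjusted p = 0.516) did not pass.

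Il6ra (ENSMUSG00000027947.7, chromosome 3, 89673246 to 89717084, minus strand), the chain that binds IL-6, was counted with 86, 107 and 80 reads in female TG and 6, 39 and 53 reads in male TG, equal to 7.56, 8.59 and 6.30 CPM against 0.546, 2.69 and 5.21 CPM. Every female TG library lay above every male TG library. The log2 fold change was 1.46 (SE 0.72, interval -0.12 to 3.04, edgeR adjusted p = 0.27), which did not pass. In DRG the reads numbered 0, 115 and 34 in females and 24, 35 and 65 in males, so that the female libraries held both the lowest and the highest level, and the log2 fold change of 0.29 (SE 1.29) was -1.30 without female DRG 2. The TG value without male TG 3 was 2.24, at an unadjusted p of 0.0211.

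Both ligand genes were close to the limit of detection. Lif (ENSMUSG00000034394.8, chromosome 11, 4157560 to 4172517, plus strand), leukaemia inhibitory factor, had 0, 27 and 11 reads in female DRG, 19, 0 and 49 in male DRG, 37, 0 and 33 in female TG and 0, 18 and 33 in male TG. It was thus at 0 in 4 of the 12 libraries, 1 in each group, and nowhere above 3.86 CPM. Il6 (ENSMUSG00000025746.7, chromosome 5, 30339701 to 30346508, plus strand) had 0, 22 and 87 reads in female DRG, 32, 6 and 33 in male DRG, 27, 0 and 30 in female TG and 9, 5 and 70 in male TG, at most 7.37 CPM. Library levels of both genes overlapped between the sexes in each ganglion, and no fold change is given, since replicates of 1 group ranged from 0 to as many as 87 reads.

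Stat3 (ENSMUSG00000004040.10, chromosome 11, 100746412 to 100800854, minus strand) was counted at 315, 307 and 330 CPM in female DRG and 176, 230.3 and 275 CPM in male DRG. In TG it was counted at 338, 305 and 219 CPM in females and 174, 174 and 228 CPM in males. All female DRG libraries lay above all male DRG libraries, and in TG 1 female library (219 CPM) lay below 1 male library (228 CPM). The log2 fold change was 0.63 in TG (SE 0.24, interval 0.10 to 1.17, edgeR unadjusted p = 0.0249, adjusted p = 0.196), or 1.55-fold, and 0.48 in DRG (SE 0.27, interval -0.10 to 1.06, adjusted p = 0.502). The end of Stat3 overlaps that of Stat5a on the opposite strand in the annotation. The libraries keep the strand but the strand setting of the counting is not stated, so reads at the overlap are uncertain, although Stat5a was far less abundant (1.06 against 26.9 RPKM).

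Socs3 (ENSMUSG00000053113.3, chromosome 11, 117827393 to 117831361, minus strand), which STAT3 induces and whose product blocks JAK kinases bound to gp130, was the gene of the signalling pair with the larger sex difference. It was counted at 49.5, 54.7 and 29.4 CPM in female TG and at 7.46, 8.98 and 36.3 CPM in male TG, with male TG 3 above 1 of the female libraries. The means were 44.5 ± 13.4 and 17.6 ± 16.3 CPM (SD, n = 3 each), and the fitted fold was 2.63. On the log2 scale this was 1.39 (SE 0.54, interval 0.20 to 2.59), with an edgeR unadjusted p = 0.0261 that became 0.199 after adjustment. In DRG it was counted at 55.2, 35.7 and 36.3 CPM in females and 25.6, 16.6 and 25.3 CPM in males, without overlap. There the means were 42.4 ± 11.1 and 22.5 ± 5.11 CPM. The fitted fold was 1.89, or 0.91 on the log2 scale (SE 0.35, interval 0.16 to 1.67, edgeR unadjusted p = 0.021, adjusted p = 0.349). Over the 12 libraries Socs3 and Stat3 had a Pearson r of 0.81, and 0.553 with group means removed.

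**Figure D3:**
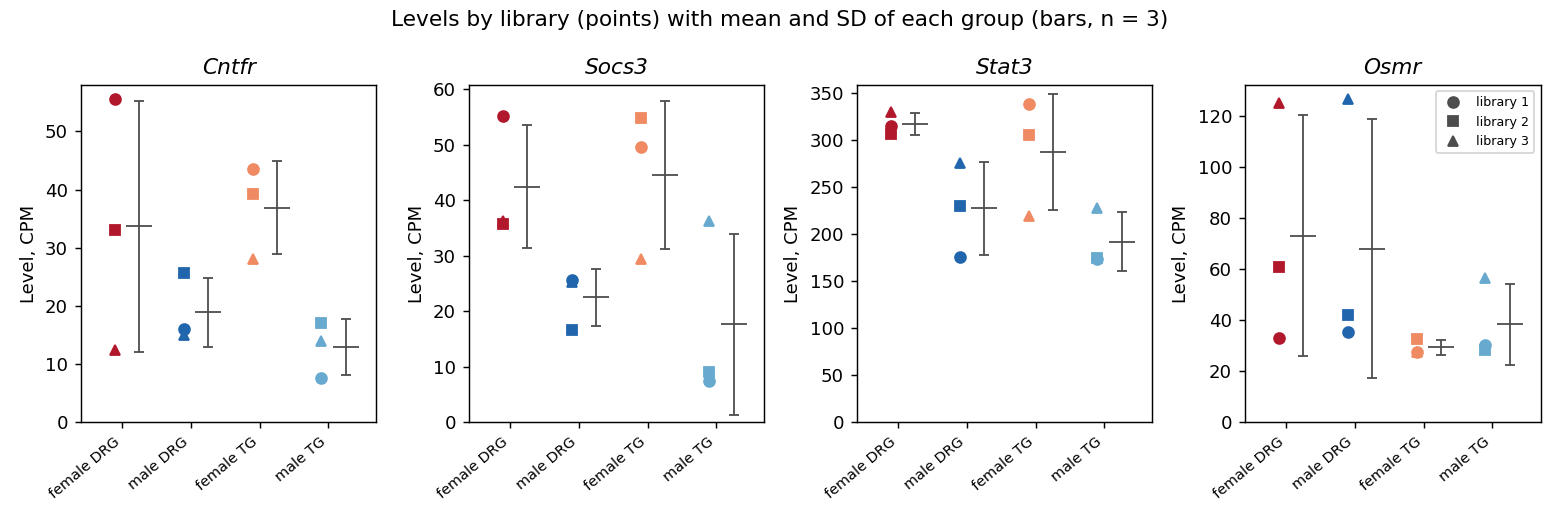
Level in CPM of Cntfr, Socs3, Stat3 and Osmr in each library (points, shaped by library number) with the mean and SD of each group of 3 (bars), on axes that start at 0. Female TG lies above male TG for Cntfr in all libraries, 1 male TG library reaches the female range for Socs3, and the high Osmr levels belong to libraries numbered 3.

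The promoters of Socs3 and Il31ra are shown because they were the only members whose start-site windows held the palindromic STAT motif TTCNNNGAA (the same on both strands; N is any base). Windows ran from 250 bases before to 50 bases after each RefSeq start (GRCm38.p6, not the mm9 build of the counts), all 10 genes had at least 1, and 2 of the 10 held a match, against 9.55% of 27025 genes in the RefSeq table. The stretches below are the 250 bases before the start, 5′ to 3′ on the gene's strand, with the match in capitals, at chr11:117969367-117969616 (minus strand) and chr13:112580663-112580912 (minus strand).
Socs3: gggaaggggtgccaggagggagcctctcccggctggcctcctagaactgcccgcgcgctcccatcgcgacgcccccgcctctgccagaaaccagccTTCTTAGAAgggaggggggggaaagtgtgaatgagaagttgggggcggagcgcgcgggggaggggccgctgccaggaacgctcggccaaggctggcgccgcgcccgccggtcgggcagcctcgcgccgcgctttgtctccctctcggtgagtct
Il31ra: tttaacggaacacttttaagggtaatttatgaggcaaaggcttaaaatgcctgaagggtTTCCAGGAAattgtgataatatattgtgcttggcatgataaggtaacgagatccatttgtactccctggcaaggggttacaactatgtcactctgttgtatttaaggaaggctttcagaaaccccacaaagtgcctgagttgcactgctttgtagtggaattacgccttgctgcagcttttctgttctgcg
The match begins 154 bases before the start of Socs3 and 191 bases before that of Il31ra. Among known STAT3 target genes with a window, 4 of 15 held the motif (Bcl6, Gfap, Icam1 and Reg3b). A match describes the letters only and is no evidence of binding.

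The sex comparisons were read by the study's criteria in adapted form. These were a fold change above 2, an unadjusted p under 0.05 and a mean CPM above 1 in the higher sex. The study itself used RPKM above 1 and p-values from DESeq, where CPM and edgeR stand in here. In TG, 2 of the 10 genes (Cntfr and Socs3) met them as higher in females and 0 as higher in males, against 5.14% and 2.24% of all 14004 genes tested. Cntfr, Socs3 and Il6ra were named by the study as female-selective from these same libraries, so their direction is not independent evidence. Levels of the sexes did not overlap, with females higher, in 3 of the 10 (Il6st, Il6ra and Cntfr) and in 12.3% of all genes, while with males higher the shares were 0 of 10 and 11.4%. In DRG 0 of the 10 met the criteria in either direction (2.01% of all 13958 genes higher in females, 2.93% higher in males), and 2 did not overlap, Socs3 and Stat3, both higher in females (7.46% of all genes; with males higher 0 and 10.3%). The median log2 fold change of the 10 was 0.48 in TG and 0.38 in DRG, beside 0.05 and 0.02 for all genes. The 10 include Lif and Il6, whose fold changes are not given above. After the GC and length correction the median of the 10 was 0.24 in TG and 0.21 in DRG. Leaving out male TG 1 gave 0.18 in TG, and leaving out male TG 3 gave 1.55. In DRG it was 0.1 without female DRG 3 and 0.71 without male DRG 3, so its size depended on single libraries. Without TMM factors the median of all genes moved to 0.17 and 0.19, those of the 10 to 0.55 and 0.57, and the genes that met the criteria split into 1030 higher in females and 159 higher in males in TG (720 and 313 with the factors) and 582 and 161 in DRG (280 and 409).

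At an adjusted p under 0.05 edgeR called 0 of the 10 and 0% of all genes in either ganglion. An unadjusted p under 0.05 was reached in TG by 3 of the 10 (Cntfr, Socs3 and Stat3) and by 2898 of all 14004 genes. The DRG counts were 1 of the 10 (Socs3) and 1649 of all 13958 genes. DESeq2 called Cntfr alone among the 10 in TG, where it called 812 of all genes, and 0 of the 10 in DRG, where it called 345. The sex effects of TG and DRG share no library, and their difference was tested in a model of all 12 libraries. In edgeR that test called 0 of the 10 and 0% of 14829 genes after adjustment, with 0 of the 10 and 292 of all genes at an unadjusted p under 0.05, and DESeq2 also called 0. So a call in TG and none in DRG, as for Cntfr, is not shown to be a difference between the ganglia.

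A correction for the GC content and length of genes took both TG calls away. In edgeR it lowered the log2 value of Cntfr to 0.91 (adjusted p = 0.525), that of Socs3 to 0.72 (adjusted p = 0.669) and that of Stat3 to 0.19 (adjusted p = 0.751). The exons of Cntfr and Socs3 were the most GC-rich of the 10, with 59.8% and 59.1%. Socs3 in TG also missed the unadjusted p of 0.05 when female TG 1, female TG 2, male TG 1 or male TG 2 was left out, with values of 1.26, 1.17, 1.03 and 1.07, and was 2.49 without male TG 3. Cntfr met the criteria whichever library was left out, at 1.30 to 1.81. Il6ra met them with no filter on low counts, where its value stayed at 1.46.

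**Figure D4:**
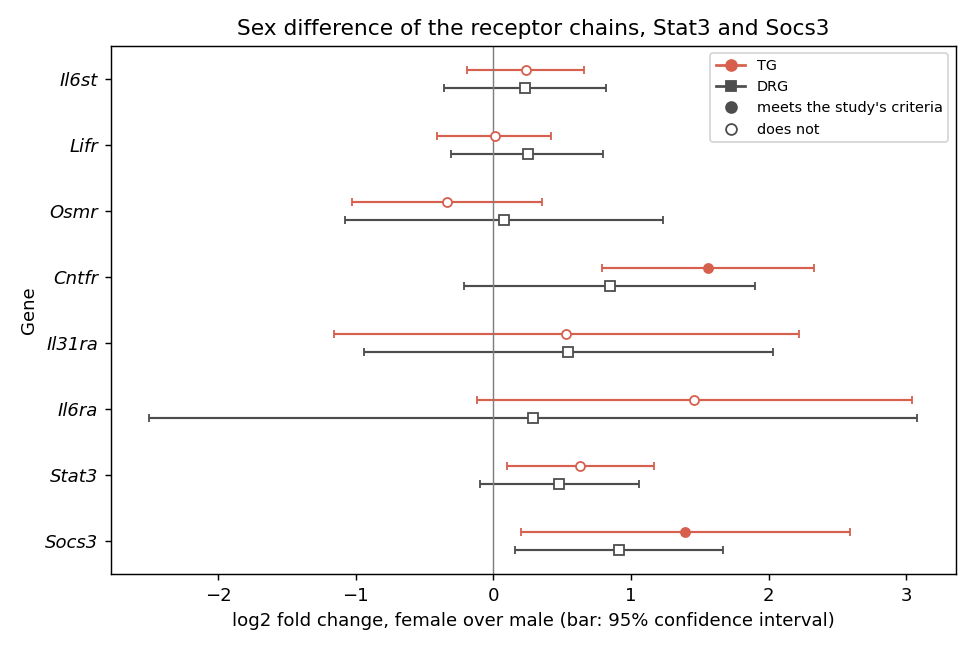
Log2 fold change of females over males with its 95% confidence interval for the 6 receptor chains, Stat3 and Socs3, in TG (circles) and DRG (squares), with filled symbols where the study's criteria were met. Cntfr (1.56) and Socs3 (1.39) in TG are filled, and the intervals of Il6st, Lifr, Osmr and Il31ra include 0 in both ganglia.

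The rest of the pathway was read on a list of 56 further genes, of which 42 passed the filter in TG and 40 in DRG. In TG 11 of the 42 met the study's criteria as higher in females and 0 as higher in males, with a median log2 fold change of 0.62. They were the kinase gene Tyk2, the STAT genes Stat5a and Stat5b, the inhibitors Cish, Pias3, Pias4 and Ptpn6, and the target genes Bcl3, Icam1, Junb and Pim1. The study named Icam1 and Stat5 as female-selective from these same libraries, so their direction is not independent evidence. Of all genes tested in TG, 5.14% met the criteria as higher in females and 2.24% as higher in males. In DRG 2 of the 40, both target genes, met them (Junb and Gadd45g), again as higher in females, with a median of 0.26, beside 2.01% of all genes higher in females and 2.93% higher in males. Between TG and DRG 0 of the 47 tested passed an adjusted p of 0.05 in edgeR or DESeq2. An unadjusted p under 0.05 in edgeR was reached by 1 of the 47 and by 1310 of all 14829 genes. The TG count was 1 of 42 after the GC and length correction (Bcl3), near the 2.06% of all genes that then met the criteria in either direction, and 5 to 10 with 1 library left out (5 without female TG 2, 6 without female TG 1, male TG 1 or male TG 2).

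Ligands other than Lif and Il6 were scarcely counted. Of 10, Ctf1 was the most abundant at 0.896 RPKM, Il27, Ctf2 and Il31, the ligand of the IL31RA and OSMR pair, had 0 reads in all 12 libraries, and 1 passed the filter in TG. Of the 2 further receptors, Il11ra1, the IL-11 receptor, stood at 2.24 RPKM and Il27ra at 0.155, with 0 reads in 8 libraries. JAK kinases were led by Jak1 at 62.9 RPKM and Jak3 was the lowest at 0.382, while Tyk2 in TG had 23.4 ± 5.01 CPM in females and 11.2 ± 2.78 in males (SD, n = 3 each), which edgeR put at 1.12 on the log2 scale (SE 0.33, adjusted p = 0.156). Jak1, the main kinase of gp130, had -0.21 in TG (SE 0.24, adjusted p = 0.642).

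Among the other STAT genes, Stat4 had the lowest level, 0.137 RPKM. In TG Stat5b had 56.3 ± 8.10 CPM in females and 27.7 ± 5.29 in males, without overlap. Its fitted log2 fold change was 1.07 (SE 0.25, edgeR adjusted p = 0.154). Stat5a, which shares the overlap with Stat3, had 11.3 ± 2.42 and 4.61 ± 0.353 CPM. Among inhibitors, Ptpn11 was the most abundant at 25.5 RPKM and Socs1 the lowest at 0.555. Cish, a target of STAT5, had 7.5 ± 0.558 CPM in female TG and 2.59 ± 0.822 in male TG, while in DRG it had 3.15 ± 2.74 and 3.13 ± 1.71 CPM. The remaining inhibitors of the SOCS family tested in TG (Socs2, Socs4, Socs5, Socs6 and Socs7) had log2 fold changes of -0.46 to 0.62, none of which met the criteria.

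Known STAT3 target genes leaned to females in both ganglia. In TG all 17 that passed the filter had a fitted value above 0, with a median log2 fold change of 0.72, and 4 met the criteria, and in DRG all 14 did so, with a median of 0.62 and 2 that met them. A gene can pass the filter through the sex in which it is higher, so these counts are descriptions (5.14% of all genes in TG and 2.01% in DRG met the criteria as higher in females), and with no filter the counts were 18 of 18 in TG and 16 of 18 in DRG. Over all genes tested, 7402 of 14004 in TG and 7172 of 13958 in DRG were above 0. After the GC and length correction 15 of 17 and 13 of 14 lay above 0, with medians of 0.53 and 0.98. Mcl1, a survival factor, was the most abundant at 30.1 RPKM, and Reg3b, with reads in 1 of 12 libraries, the lowest.

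Junb, a member of the AP-1 transcription factor family that early responses also induce, met the criteria in both ganglia. It was counted at 48.1, 42.4 and 38.5 CPM in female TG and 15.5, 18.7 and 23.3 CPM in male TG, and at 90.0, 46.6 and 30.0 CPM in female DRG and 24.2, 17.8 and 17.9 CPM in male DRG. Females were higher in every library of either ganglion. The log2 fold change was 1.21 in TG (SE 0.27, edgeR unadjusted p = 0.000862, adjusted p = 0.154) and 1.49 in DRG (SE 0.41, adjusted p = 0.307), and DESeq2 gave adjusted p-values of 0.00901 and 0.028. It fell short of the criteria after the correction in TG (0.78) and without female DRG 1 in DRG (0.94). Gadd45g, a stress-induced gene, had 26.9, 18.1 and 21.5 CPM in female DRG and 13.7, 7.79 and 8.51 CPM in male DRG, again without overlap. Its fitted difference was 1.15 (SE 0.41, edgeR adjusted p = 0.328), and it fell short of the criteria at 0.98 without female DRG 1 and 0.99 without male DRG 2. Icam1, an adhesion molecule, had 15.6 ± 5.70 CPM in female TG and 4.60 ± 6.08 in male TG.

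**Figure D5:**
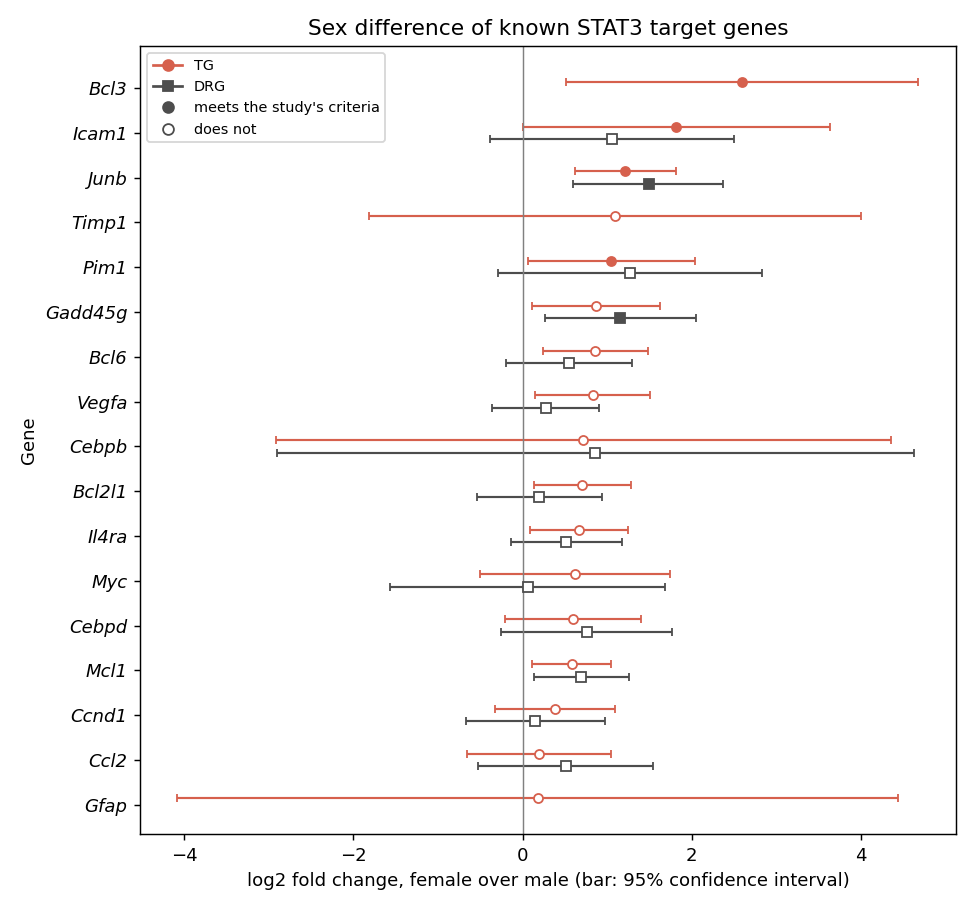
Log2 fold change of females over males with its 95% confidence interval for the known STAT3 target genes tested in TG (circles) or DRG (squares), ordered by the TG value. All 17 TG points and all 14 DRG points lie to the right of 0, and filled symbols mark Bcl3, Icam1, Junb and Pim1 in TG and Junb and Gadd45g in DRG. The intervals of 10 in TG and 3 in DRG exclude 0, which equals an edgeR unadjusted p under 0.05. Of all genes, 2898 of 14004 in TG and 1649 of 13958 in DRG reached that p.

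Fibroblast and macrophage markers leaned to females in both ganglia, as did endothelial, mural and Schwann cell markers. The summed fibroblast and macrophage levels overlapped between the sexes. All 6 fibroblast markers were fitted higher in females in both ganglia, with summed levels of 1030.2 to 1676 CPM in female TG against 618 to 1405 in male TG (ratio of means 1.52) and of 1459.8 to 2191 against 1027 to 1612 CPM in DRG (ratio 1.52). All 7 macrophage markers were fitted higher in females as well, with sums of 206 to 415 against 86.4 to 215 CPM in TG and 131 to 313 against 103 to 145 CPM in DRG. Neither list passed an exact permutation test (two-sided p = 0.2 for each), which cannot go below 0.1 with 3 libraries against 3. Female over male ratios of the other sums were 1.29 in TG and 2.06 in DRG for endothelial cells, 1.19 and 1.61 for mural cells, 1.12 and 1.03 for Schwann cells, 1.19 and 0.928 for satellite glia (where 2 of 5 markers in TG and 4 of 5 in DRG were fitted higher in females, against the direction of each ratio), 0.922 and 0.841 for sensory neurons and 0.438 and 0.513 for neutrophils and T cells, whose markers S100a8, Cd3e and Cd3g were at 0 in at least 1 library. Fitted higher in females in TG were 5 of 6 endothelial, 4 of 5 mural, 6 of 7 Schwann cell and 5 of 10 sensory neuron markers. The DRG counts were 6 of 6, 5 of 5, 6 of 7 and 4 of 10. Of the neutrophil and T cell markers tested, 0 of 2 were so in either ganglion. The fibroblast and macrophage markers were counted in every library of the ganglion except Aif1 in DRG. Over the 12 libraries Pearson's r with the fibroblast sum was 0.864 for Socs3, 0.881 for Stat3 and 0.668 for Cntfr, and with the macrophage sum 0.712, 0.577 and 0.756. In the same order r was 0.642, 0.475 and 0.635 with the Schwann cell sum and 0.527, 0.553 and 0.548 with the endothelial sum. It was 0.408, 0.506 and 0.392 with the mural, 0.0435, -0.136 and 0.56 with the satellite glia and -0.465, -0.334 and -0.584 with the sensory neuron sum. Group means, and so the sex differences, were not removed from these r. Male TG 3, the male library with the high Socs3, also had the highest fibroblast sum of male TG, 1405 CPM against 618 and 784. It also had the highest share of reads outside genes of male TG, 47.9% against 40.8% and 37.6%, and in DRG all female libraries had a higher share (46.4% or more) than all male libraries (42.6% or less). The part of these cells and of this share in the sex differences of Cntfr, Socs3, Stat3 and the target genes was not tested.

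The summed markers of the itch neurons that carry Il31ra and Osmr were higher in males. The summed level of Nppb, Sst, Htr1f, Cysltr2 and Nts was 21.4 to 26.0 CPM in female TG and 36.3 to 39.7 CPM in male TG, and 21.5 to 34.6 against 37.5 to 61.9 CPM in DRG, so that the sexes did not overlap in either ganglion (exact permutation p = 0.1, the smallest possible). Sst and Cysltr2 were at 0 in at least 1 TG library, and Sst and Nts in at least 1 DRG library. Of the single markers, 0 of the 4 tested in TG and 1 of the 5 in DRG were fitted higher in females, the 1 being Htr1f (11.4, 9.07 and 7.87 CPM in females, 4.30, 7.41 and 7.64 CPM in males). As higher in males in DRG, 2 of the 5 met the criteria, against 2.93% of all genes. The study listed Nts as male-selective in DRG neurons from these same libraries, so its direction is not independent evidence. Il31ra, with fitted values of 0.53 and 0.54, did not follow the male-higher direction of the sum. Its r with the sum over 12 libraries was 0.0146, against 0.538 for Osmr.

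The genes whose levels ran most closely with 5 of the members over the 12 libraries were ranked by Pearson's r of log2 CPM among 14829 genes. For Socs3 they were Fosb (0.981), an immediate early gene, Ngfr (0.95), the p75 neurotrophin receptor, and Icam1 (0.947). Cntfr was followed by Pkdcc (0.945), Tcf3 (0.943) and Bag6 (0.934), Il6st by Dkk3 (0.958), Tmod1 (0.949) and Pitpnc1 (0.933), Osmr by Slc39a6 (0.906), Ckap5 (0.903) and Evi5 (0.893), and Il31ra by Uaca (0.914), Pnrc1 (0.87) and Ripk1 (0.86). All points share library, depth and composition, and no p is attached to a rank.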

How the data were processed

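RNA of 12 Percoll-enriched fractions was rRNA-depleted and made into dUTP stranded libraries. The authors aligned single reads to mm9 with TopHat2 and counted them with HTSeq; versions, annotation and strand setting are not given in the sources used here. The authors' deposited files hold raw counts per gene symbol, without normalization. Summary lines that name no gene were left out of library totals (reads outside genes, 37.6% to 50.4%).

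Groups came from sample titles. Sex was compared in each ganglion (6 libraries) with edgeR 4.0.16 in R 4.3.3 (filterByExpr, TMM, quasi-likelihood F-test, Benjamini-Hochberg adjustment over all genes), and TG against DRG and the interaction in a model of 12 libraries with a mean for each group. Intervals are 95%, computed from the fitted SE. Fold changes are female over male or TG over DRG. DESeq2 1.42.0 and the other alternatives are in the closing section. The authors used DESeq and RPKM; CPM stood in for RPKM in the criteria. Counts of genes omit Xist, Tsix and the Y-linked Ddx3y, Uty, Kdm5d and Eif2s3y. Offsets for GC content and length came from mgcv 1.9.3. Exon lengths, GC and positions came from GENCODE vM1 (mm9), which matched 21627 genes (95.7%); promoters came from RefSeq. Fits were tested on simulated data. Correlations used log2 CPM with a prior count of 2. Since PCR copies were not told apart by molecular identifiers, depth limits cover counting error only.

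All 10 members are named. Of the pathway list, genes that met the criteria, or passed an adjusted p for TG against DRG, and the most and least abundant of each subgroup are named, except 1 gene that is not reported here; the other SOCS genes and Bcl6, Gfap and Reg3b beside the motif were added after their values were seen. Likeness gives the 3 highest r for 5 members. Members and lists were chosen with earlier results of these data known.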

Additional observations from a re-analysis of the deposited data

Results flagged for a closer look

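For each of the 10 genes the highest and the lowest level among the 6 libraries of a ganglion were compared with the nearest other library, as a share of the whole range. In 20 such groups of 6, 2 extremes stood apart beyond Dixon's 95% critical value, where chance gives about 1 group in 20. Both were male TG 3. Osmr was at 56.5 CPM there, with the next TG library at 32.8 CPM, a gap of 0.814 of the range. Il6 was at 6.88 CPM (70 reads) there, with the next at 2.37 CPM, a gap of 0.656 of the range.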

How the results depend on the processing

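Results were recomputed with other tools, scalings, filters and library sets. In TG, the count of the 10 genes that met the criteria (2) was 0 after the GC and length correction, 1 with the correction and the replicate block together (Socs3), 4 in the libraries numbered 1 and 2 only (Cntfr, Il31ra, Il6ra and Socs3) and 1 to 4 with 1 library left out, the 4 without male TG 3. At an adjusted p under 0.05 (0) it was 1 in DESeq2, 5 in libraries 1 and 2 and 0 to 2 with 1 library left out, the 2 being Cntfr and Stat3 without female TG 3. The pathway count (11) was 1 after the correction, 2 with block and correction, 6 in the model of 12 libraries and 5 to 10 with 1 left out. In DRG, the members' count (0) was 1 without TMM factors, 2 in libraries 1 and 2, 1 at a fold change above 1.5 and 0 to 2 with 1 left out, always Socs3 with or without Cntfr. The DRG pathway count (2) was 4 after the correction, 4 with block and correction, 1 in libraries 1 and 2 and 0 to 2 with 1 left out, the 0 without female DRG 1. For TG against DRG the members' count (0) was 1 (Osmr) without a filter and 1 (Osmr, adjusted p = 0.0118) with the replicate block. Over all genes, those that met the criteria in TG (1033) numbered 288 after the correction, 266 with block and correction, 3491 in libraries 1 and 2, 2713 at a fold change above 1.5 and 580 to 2527 with 1 library left out. In DRG (689) they numbered 452, 375, 1769, 1640 and 372 to 1580. Between TG and DRG (143) DESeq2 called 333, no filter 218, libraries 1 and 2 814, and leaving out 1 library 77 to 231. The cause of these shifts was not tested, beyond the smaller number of libraries or genes in some. Taking libraries 1 and 2 alone for TG against DRG was chosen after seeing the data.

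Signs turned for values within their error. Lifr in TG was -0.02 in DESeq2, -0.04 in the model of 12 libraries and -0.06 to 0.08 with 1 library left out. Osmr in TG was 0.05 in libraries 1 and 2 and -0.52 to 0.06 with 1 left out, and in DRG -0.56 to 0.94. Il6ra in DRG was -1.03 with the replicate block, -1.04 with block and correction and -1.30 to 0.86 with 1 left out. Il31ra in DRG was -0.21 to 1.17. For TG against DRG with 1 library left out, Il6ra was -0.18 to 1 (-0.05 in libraries 1 and 2), Cntfr -0.40 to 0.08, Il31ra -1.11 to 0.08 and Socs3 -0.69 to 0.04. Cntfr, Socs3 and Stat3 kept a female-higher sign in both ganglia under every alternative run, and Osmr a DRG-higher sign.

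Libraries of a group share numbers 1 to 3. Deviations from group means correlated between same-numbered libraries at -0.0984 to 0.00983 for female and male TG, 0.0317 to 0.168 for DRG and 0.0277 to 0.216 for TG and DRG of 1 sex. Whether same-numbered TG and DRG libraries share animals is not given in the labels, and these values do not decide it. The numbers were not taken as pairs. With the replicate block 562 genes differed between TG and DRG, against 143 without it, and the block changed no other count of members beyond those given. Depth limits Lif, Il6, Il6ra and Il31ra most, with 0 to 115 reads per library for Il6ra.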
